A study of Talinum fruticosum with 24 samples.

Results

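The night-to-morning step of leaves treated with abscisic acid (ABA) was taken as the change from the 640 min to the 1280 min harvest. It rests on 4 of the 24 libraries, chosen by their titles: 2 from ABA leaves at 1280 min and 2 from ABA leaves at 640 min. The same step in 4 mock libraries served as its reference. The plants were Talinum triangulare (synonym Talinum fruticosum, waterleaf), 2 months old and kept at 25 °C in a light period of 12 h and at 23 °C in the dark. Mature leaves were sprayed with 200 µM ABA or with mock solution 4 h into the light period and sprayed again 4 h later, and both solutions contained methanol and Tween-20. The later harvest was made 1.3 h after lights came on again and the earlier one 2.7 h after lights went off. A library holds both treated leaves of 1 plant, pooled (2 leaves), and no plant was used again. The groups are ABA at 1280 min, ABA at 640 min, mock at 1280 min and mock at 640 min, with 2 plants each. Light, time of day and time since the sprays change together over this step and cannot be told apart.

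ABA is the plant hormone that rises in drought, closes stomata and changes the transcription of many genes through a receptor, phosphatase and kinase cascade. Leaf transcripts also follow the day: a circadian clock and light together raise and lower many of them around dawn and dusk. Under drought Talinum triangulare can add crassulacean acid metabolism (CAM) to its C3 photosynthesis. CAM plants fix carbon dioxide into malate at night and release it behind closed stomata by day. The design asks how ABA starts that change, and the morning step shows how much of the ordinary turn from night to day still takes place in treated leaves.

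The 8 libraries held 18069275 to 21849517 counts each and listed between 18434 and 19030 features. Of 20617 features with a count anywhere in the series, 17561 were tested. Levels are in CPM, counts relative to library size after TMM scaling, a correction for library composition. The ABA libraries of 1280 min correlated at r = 0.9713 across features, the lowest of the 12 replicate pairs, and 11.0% of features differed more than 2-fold between them, against 2.85% between the ABA libraries of 640 min, 5.5% between the mock libraries of 1280 min and 2.89% between those of 640 min. Results that rest on the treated morning are therefore given for both of its libraries or without one of them. The files hold identifiers with no gene names, so the leaf identity could not be checked with marker genes, and features are described by behaviour, with few identifiers. In whole leaves, fewer cells of a type and less RNA per cell cannot be told apart.

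In ABA leaves, 4468 features were higher in the morning than at night and 4677 were lower, together 52.1% of those tested (edgeR quasi-likelihood test, adjusted p under 0.05). Of those that rose, 2759 did so at least 2-fold and 575 at least 8-fold, and of those that fell, 2829 and 417 did. Their median log2 fold change was 1.29 among features that rose and -1.19 among those that fell. A few transcripts moved between absence and presence: 34 features that rose had no count in either ABA library of 640 min, and 28 that fell had none in either ABA library of 1280 min. In mock leaves the step was wider, with 4847 features higher and 5458 lower, 58.7% of those tested. There, 3265 rose at least 2-fold and 765 at least 8-fold, while 3453 and 598 fell as far. The standard deviation of the log2 fold changes over all features was 1.5 in ABA leaves and 1.71 in mock leaves. The balance of directions is relative to the TMM scaling. With library size alone, the ABA step had 2579 higher and 7767 lower features (24.9% higher in place of 48.9%) and the mock step 2046 and 10673 (16.1% in place of 47.0%). Under it the median over all features was -0.49 in ABA leaves and -0.99 in mock leaves, in place of -0.02 and -0.07 (log2).

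KMT19684 and KMT12361 rose most in ABA leaves. KMT19684 stood at 32.8 and 50.9 CPM in ABA leaves at 1280 min, against 0.0605 and 0.0898 CPM in ABA leaves at 640 min, where its libraries held 2 and 3 counts. This is a log2 fold change of 9.01 with an SE of 0.57 and an edgeR adjusted p of 6.27e-10. Its mock libraries had 0.542 and 0.375 CPM at 1280 min, against 2 counts in both libraries of 640 min together, 13.1 times as much, with a 95% counting interval from 3 to 118 (adjusted p of 0.00738, edgeR). Both treated morning libraries were far above every other library, while the difference between the steps missed the threshold (edgeR adjusted p = 0.0749), and over its alternatives the adjusted p ran from 0.000777 with DESeq2 to 0.253. Its mock rise missed the threshold without mock replicate 1 at 1280 min (edgeR adjusted p = 0.0507). At every earlier harvest its group mean was at most 0.215 CPM in either treatment. The treated morning held 1978 counts of KMT19684, and only through them did it reach the mean of 200 counts required of named features. The gap to the other libraries of 640 and 1280 min therefore follows from its choice. KMT12361 stood at 46.9 and 43.4 CPM in ABA leaves at 1280 min, against 0.0605 and 0.12 CPM at 640 min, so its log2 fold change was 8.88 with an SE of 0.45 (adjusted p of 1.64e-11, edgeR). In mock leaves it stood at 5.83 and 6.99 CPM at 1280 min and at 0.0737 and 0.066 CPM at 640 min, which is 6.41 ± 0.51 on the log2 scale. KMT12361 rose overnight in both treatments, and the treated morning libraries lay above the mock ones. That gap follows from its choice, since only the 2155 counts of the treated morning took it to a mean of 200. Its night libraries together held 6 counts in ABA and 4 in mock leaves. The difference of its steps missed the threshold (2.46 ± 1.14, log2 with SE, edgeR adjusted p = 0.138).

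The features that fell most in ABA leaves also fell in mock leaves. KMS95215 stood at 0.647 and 1.53 CPM in ABA leaves at 1280 min and at 55.0 and 59.9 CPM at 640 min, so its log2 fold change was -5.73 with an SE of 0.34 (adjusted p of 1.57e-10, edgeR). In mock leaves it stood at 1.15 and 0.562 CPM at 1280 min and 54.8 and 63.6 CPM at 640 min, which is -6.12 ± 0.36 on the log2 scale. Morning and night libraries were far apart in both treatments, while the treatments overlapped within each harvest. In ABA leaves the separation follows from the choice, which required harvests without overlap. The ABA value was -6.46 without ABA replicate 2 at 1280 min and -5.23 without replicate 1. KMT00543 stood at 2.18 and 2.14 CPM in ABA leaves at 1280 min and at 84.4 and 111 CPM at 640 min, so its log2 fold change was -5.50 with an SE of 0.24 (adjusted p of 2.59e-12, edgeR). Mock leaves held 3.46 and 2.06 CPM at 1280 min and 125 and 133 CPM at 640 min, which is -5.55 ± 0.25 on the log2 scale. The difference of the steps was 0.38 ± 0.54 for KMS95215 and 0.05 ± 0.34 for KMT00543 (log2, SE), neither past the threshold (edgeR adjusted p = 0.671 and 0.934).

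**Figure D1:**
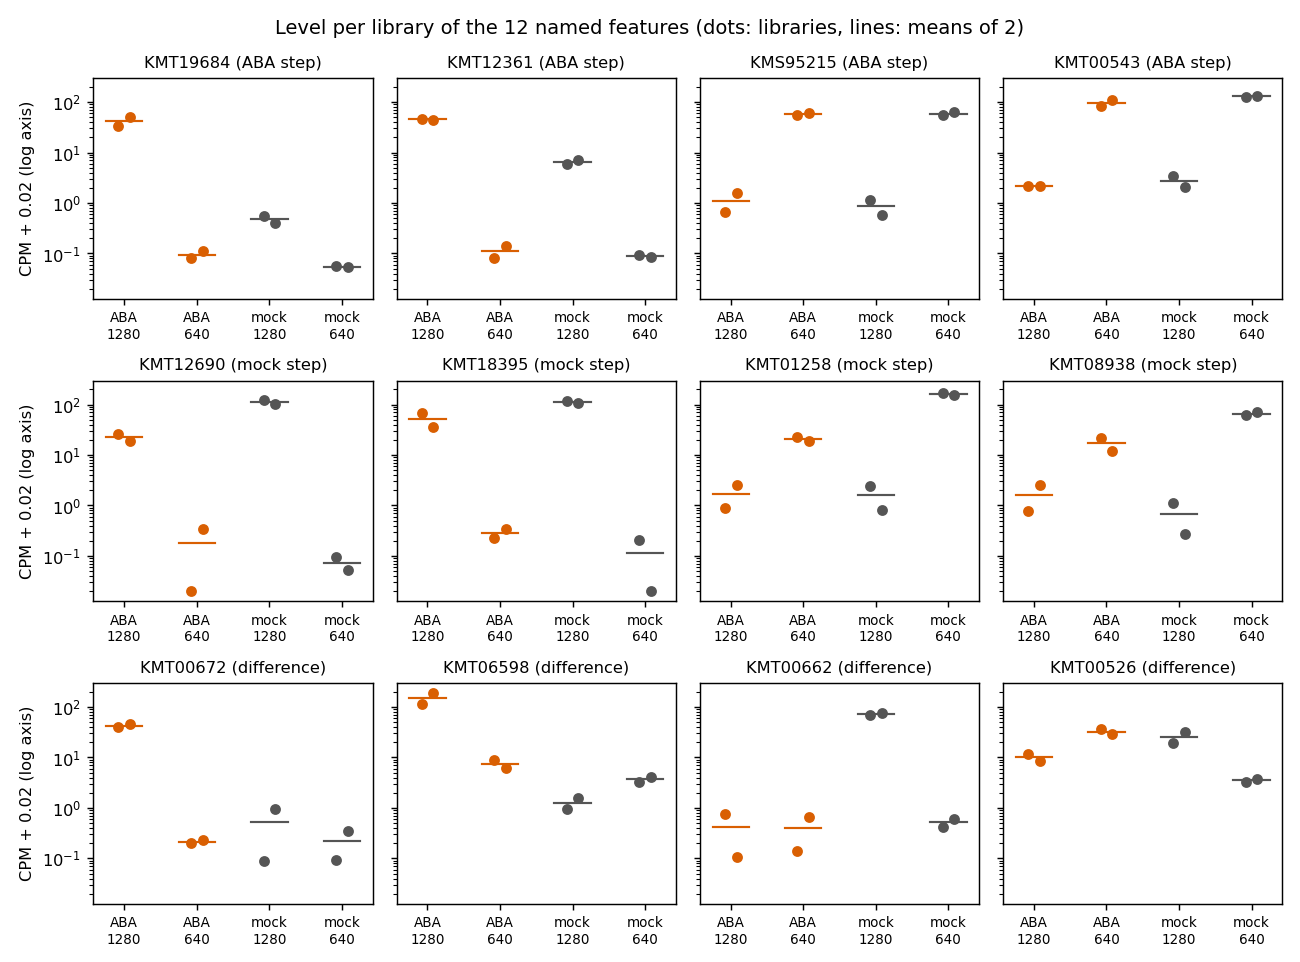
Level of each named feature in the 8 libraries, as CPM with a small constant added, on a log axis; dots are libraries, short lines the means of 2, ABA in orange and mock in grey. The top row holds the features that rose or fell most in ABA leaves and the middle row those of mock leaves. The bottom row holds those with the widest difference between the steps. Among these, KMT00672 stood at 39.9 and 46 CPM in treated morning leaves and at most at 0.936 CPM in each of the other 6 libraries. The features were chosen from these libraries, so such gaps follow from the choice.

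The 100 leaf transcripts most abundant at 40 min took a larger share of the library in mock mornings than in mock nights. In ABA leaves the harvests overlapped for these 100. Features were ranked by their level in the 4 libraries of 40 min, which enter neither step. The first 100 held 26.4% and 16.9% of all counts in ABA leaves at 1280 min (Wilson 95% intervals 26.35 to 26.38 and 16.91 to 16.95), against 17.1% and 19.2% in ABA leaves at 640 min (17.13 to 17.16 and 19.2 to 19.23). These groups overlapped, with means of 21.6% ± 6.67 and 18.2% ± 1.46 (SD, n = 2 each). In mock leaves the same features held 42.0% and 39.9% at 1280 min (41.96 to 42 and 39.83 to 39.87), against 28.0% and 25.0% at 640 min (27.94 to 27.98 and 24.97 to 25.01). Those groups did not overlap (40.9% ± 1.5 and 26.5% ± 2.1, SD, n = 2 each). With 2 libraries against 2, an exact two-sided permutation test cannot go below p = 0.33. The step in the mean share was 3.5 percentage points in ABA leaves, with -1.25 without ABA replicate 1 at 1280 min and 8.25 without replicate 2 there, and it was 14.5 points in mock leaves. Such intervals cover counting error only. With the first 20 or 500 features in place of 100, the ABA harvests did not overlap. The first 20 held 8.82% and 5.76% in ABA leaves at 1280 min, against 5.03% and 5.07% at 640 min. The first 500 held 49.5% and 39.9% at 1280 min, against 35.3% and 37.8% at 640 min.

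**Figure D2:**
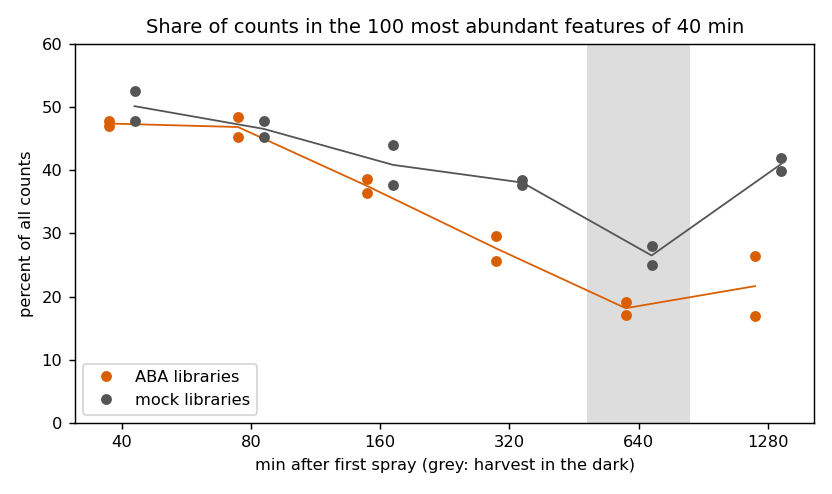
Percent of all counts held by the 100 features most abundant at 40 min, by harvest in min after the first spray; dots are single libraries and lines join the means of 2. From 640 to 1280 min the mock libraries move up to 39.9 and 42.0%, whereas the ABA libraries of 1280 min lie on either side of those of 640 min.

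Taken feature by feature, 45 of these 100 rose over the ABA step and 4 fell, against 25.4% and 26.6% of all tested features, while 68 rose and 2 fell over the mock step, against 27.6% and 31.1% of all. Their median log2 fold change was 0.59 in ABA leaves and 1.2 in mock leaves, beside -0.02 and -0.07 over all features. The step was more negative in ABA leaves than in mock leaves for 27 of the 100 and more positive for 0 by the edgeR test of the difference, against 10.5% and 10.4% of all tested features. These ABA values depend on single libraries: 40 rose and 11 fell, with a median of 0.08, without ABA replicate 1 at 1280 min, and 62 rose and 3 fell, with a median of 0.96, without replicate 2 there. Without ABA replicate 1 at 640 min 43 rose and 2 fell, with a median of 0.36, and without replicate 2 there 40 rose and 8 fell, with a median of 0.78. With library size alone 40 rose and 12 fell in ABA leaves, with a median of 0.10, and 47 rose and 3 fell in mock leaves, with a median of 0.27. The tilt faded with rank: of the next 900 features, 400 rose in ABA leaves and 163 fell, of the 4000 after those, 1314 rose and 1064 fell, and of the remaining 12561, 2709 rose and 3446 fell.

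Most of what changed overnight in ABA leaves changed the same way in mock leaves, whose libraries are separate. Of the features that rose over the ABA step, 3216 also rose over the mock step, which is 72.0% of the ABA list and 66.4% of the mock list. Of those that fell, 3563 fell in both, 76.2% and 65.3% of the lists. Over all tested features 27.6% rose and 31.1% fell over the mock step, and 25.4% and 26.6% over the ABA step. Opposite calls were found for 309 features, 1.76% of those tested. Across the 17561 features the log2 fold changes of both steps correlated at r = 0.78 (Spearman rho = 0.75), as a description over features that share libraries and a spread estimate. The slope of the ABA step on the mock step was 0.69, and that of the mock step on the ABA step was 0.9. Scatter between the steps lowers either slope, so 0.69 alone does not measure how much smaller the ABA step was. The standard deviation of the ABA step was 0.874 times that of the mock step. With library size alone the first slope stayed at 0.69, but a nearly equal shift of all features can hardly change a slope. This slope was 0.74 for ABA replicate 1 of 1280 min taken alone and 0.65 for replicate 2. The part of the spread between these replicates in the other counts was not tested beyond leaving out each in turn.

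The size of the ABA step relative to the mock step depended on which list the features came from. Features that rose in mock leaves had a median log2 fold change of 0.87 in ABA leaves and 1.38 in mock leaves, and those that fell in mock leaves had -0.83 and -1.28. The choice by the mock step favours its size. Chosen by the ABA step instead, which favours the ABA size, features that rose had medians of 1.29 in ABA and 1.21 in mock leaves, and those that fell had -1.19 and -1.21. Among the 6779 features called in both steps in the same direction, the step was smaller in ABA leaves for 65.7% of those that rose and 68.9% of those that fell. For both directions together this share was 67.4%, and 59.5% without ABA replicate 2 at 1280 min.

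**Figure D3:**
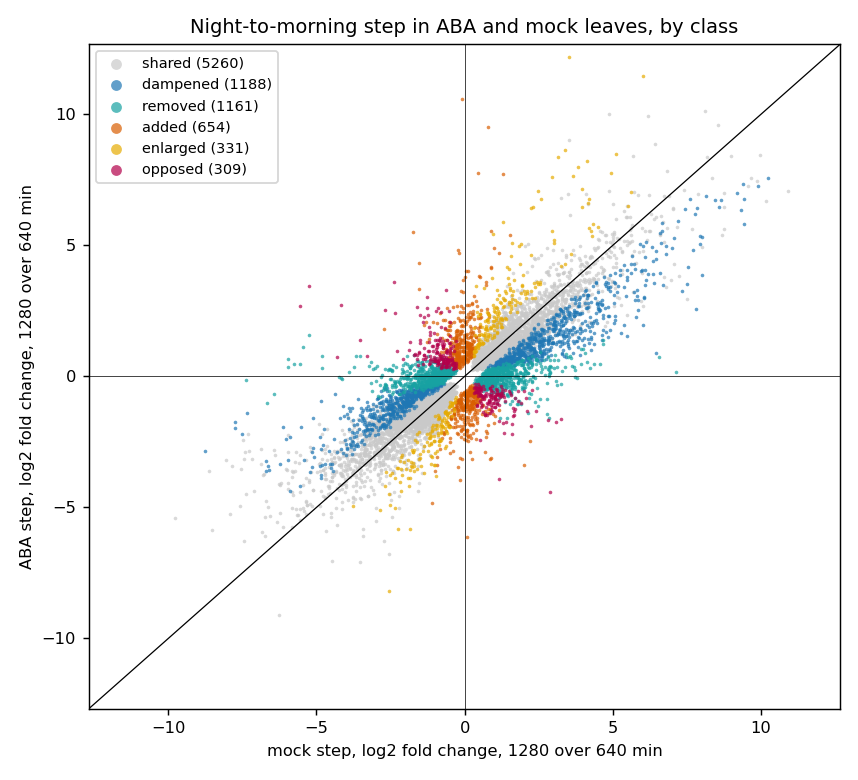
Log2 fold change of 1280 over 640 min for each feature past the threshold, in ABA leaves (vertical axis) against mock leaves (horizontal axis), coloured by class; features called in a single step with no difference between the steps are not drawn. The black diagonal marks equal steps, and the 1188 dampened features lie between it and the horizontal line at 0.

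The step itself differed between ABA and mock leaves for 3672 features, 20.9% of those tested (edgeR test of the difference, adjusted p under 0.05), with 1831 (10.4%) more positive and 1841 (10.5%) more negative in ABA leaves. These features and the rest fell into classes by both steps. The step was removed for 1161 features, called in mock leaves and not in ABA leaves with the difference past the threshold. It was dampened for 1188, called the same way in both treatments but smaller in ABA leaves. It was added for 654, called in ABA leaves and not in mock leaves, and enlarged for 331, called the same way and larger in ABA leaves. It was opposed for 309. For 5260 features the step was called the same way in both with no difference past the threshold, which is 57.5% of the ABA list and 51.0% of the mock list. That absence of a call does not show equal steps. A further 1403 features were called only in ABA leaves and 2056 only in mock leaves without a difference past the threshold, and they are assigned to no class.

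Class sizes depend on single libraries and on the scaling. The removed class was larger without ABA replicate 1 at 1280 min and smaller when any other library of 640 or 1280 min was left out. It was smallest without mock replicate 1 at 640 min, followed by mock replicate 2 at 1280 min. Features called the same way in both steps with no difference past the threshold were fewest without ABA replicate 1 at 1280 min. They outnumbered those of the full fit only without ABA replicate 2 there. The dampened class held 773 without ABA replicate 1 at 640 min and 779 without ABA replicate 2 there. Leaving out mock libraries gave 197 (replicate 1 at 640 min), 216 (replicate 2 at 640 min), 219 (replicate 1 at 1280 min) and 213 (replicate 2 at 1280 min) enlarged features. With library size alone, which moves the median difference of the steps to 0.50 from 0.04, the difference was called positive for 4391 features and negative for 792. Of the features in each class, 77 of 654 were again added, 429 of 1161 removed, 740 of 1188 dampened, 127 of 331 enlarged and 84 of 309 opposed. With the size factors of DESeq2 these numbers were 630, 1101, 1150, 319 and 295.

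**Figure D4:**
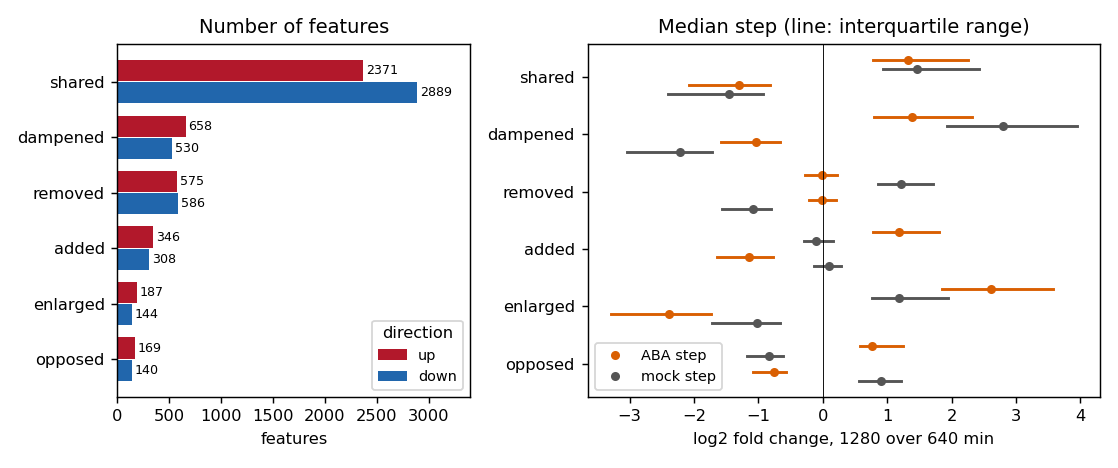
Left: number of features in each class by direction (of the mock step for the removed class, otherwise of the ABA step). Right: median log2 fold change of 1280 over 640 min in ABA (orange) and mock leaves (grey), with lines over the interquartile range, up features above down features; removed features have ABA medians of -0.01 in both directions.

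Among features that rose in mock mornings, 575 had no called change in ABA leaves and 658 rose there by less. The 575 removed features had a median log2 fold change of -0.01 in ABA leaves (interquartile range -0.27 to 0.22) and 1.22 in mock leaves (0.86 to 1.71). The 658 dampened features rose by a median of 1.39 in ABA leaves (0.79 to 2.31) and 2.80 in mock leaves (1.93 to 3.95). Single libraries are given as a description, since the classes were formed from them. The dampened features lay a median of 1.46 above the ABA night mean in replicate 1 and 1.26 in replicate 2, and the removed ones 0.06 and -0.07, on the log2 CPM scale. The mock morning libraries gave 2.74 and 2.74 for the dampened features and 1.21 and 1.21 for the removed ones against the mock night mean. The dampened rises ranked high in abundance, with a median rank of 3036 at 40 min beside 8781 over all tested features. Other mock rises had 5148 (removed), 5341 (enlarged), 4554.5 (opposed) and 6395 (called in both with no difference past the threshold). Those called in mock leaves only, without a difference, had 8055.5. Features called in no contrast had 11394, so a rank above that of all features is not particular to the dampened class. Of the first 100, 15 were dampened rises and 7 removed rises, against 3.75% and 3.27% of all tested features.

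The morning decline was changed in the same manner. In 586 features that fell in mock leaves by a median log2 fold change of -1.09, the ABA median was -0.01, and in 530 dampened ones the medians were -1.04 in ABA and -2.22 in mock leaves. The dampened features lay at -1.15 in replicate 1 and -0.94 in replicate 2 relative to the ABA night mean, against -2.18 and -2.24 in the mock morning libraries relative to the mock night mean (log2 CPM).

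ABA also added morning changes. A rise was added for 346 features, with a median log2 fold change of 1.18 in ABA leaves and -0.11 in mock leaves, and a fall for 308, with -1.15 and 0.10. It was enlarged for 187 rising features (2.62 in ABA and 1.19 in mock leaves) and 144 falling ones (-2.38 and -1.02). In the opposed class 169 features rose in ABA leaves by a median of 0.77 while falling in mock leaves by -0.83, and 140 fell by -0.76 while rising by 0.90. In the ABA morning libraries taken singly, added rises had medians of 1.11 and 1.2 and added falls of -1.02 and -1.19 relative to the ABA night mean (log2 CPM), again in libraries that formed the classes.

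Most class medians differed more between treatments in the morning than at night. These comparisons share their libraries with the difference of the steps, so their values are only set side by side. The removed rises had a median ABA-over-mock log2 fold change of -1.07 at 1280 min and 0.12 at 640 min, and 462 of 575 were lower in ABA leaves at 1280 min, against 106 lower and 145 higher at 640 min. The dampened rises had -1.08 and 0.16, with 531 of 658 lower at 1280 min, against 98 lower and 203 higher at 640 min. Added rises had 1.2 at 1280 min and 0.01 at 640 min, and 311 of 346 were higher in ABA leaves at 1280 min. Added falls had -1.21 and -0.06, with 242 of 308 lower at 1280 min. The enlarged falls already stood lower at night, at -0.39, with 67 of 144 lower at 640 min and 126 lower at 1280 min. Over all features 23.3% were higher and 22.2% lower with ABA at 1280 min, and 11.2% and 13.6% at 640 min.

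**Figure D5:**
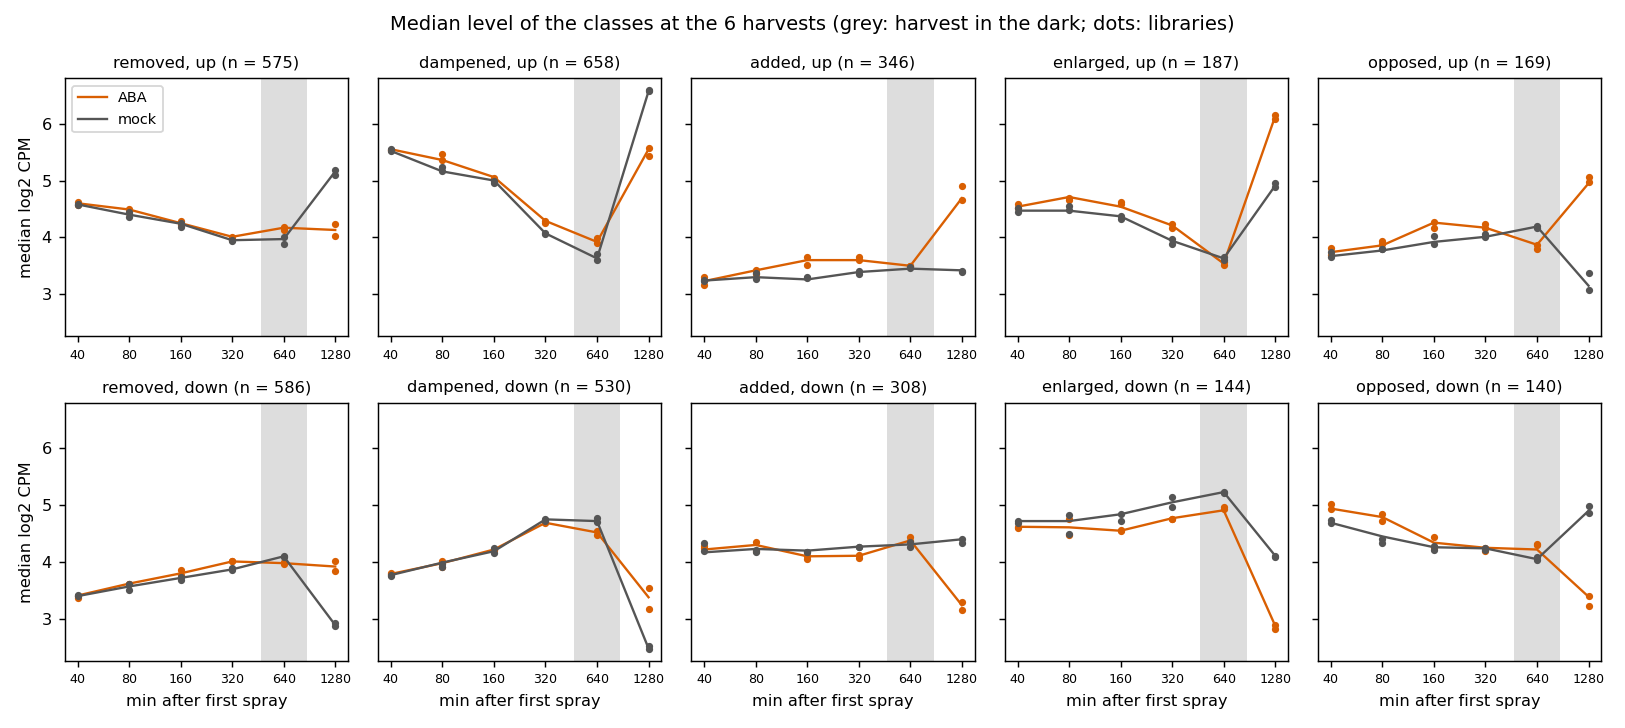
Median log2 CPM of the features in each class at the 6 harvests, ABA in orange and mock in grey, dots for single libraries; the grey band marks the harvest in the dark. Classes were formed from 640 and 1280 min alone: treatments lie close together in the removed and dampened classes up to 320 min, and the mock median of dampened rises reaches 6.57 at 1280 min beside 5.55 in ABA leaves.

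The earlier harvests were not used to form the classes and show where their features stood on the first day. Dampened rises declined through that day in both treatments, with median levels of 5.55 log2 CPM in ABA and 5.52 in mock leaves at 40 min and 4.29 and 4.07 at 320 min. At 1280 min the ABA median of 5.55 equalled that of 40 min, and the mock median of 6.57 lay above it. Removed rises declined likewise, to 4.01 in ABA and 3.95 in mock leaves at 320 min, and stood at 4.13 in ABA and 5.16 in mock leaves in the morning. Removed falls climbed over the day, from 3.41 in ABA leaves and 3.40 in mock leaves at 40 min up to 3.98 and 4.10 at 640 min, and then stayed at 3.92 in ABA leaves but dropped to 2.89 in mock leaves. Added rises moved little in mock leaves, between 3.24 and 3.45 at every harvest, while ABA leaves stood at 3.6 at 160 min, 3.50 at 640 min and 4.69 at 1280 min.

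At 320 min, 80 min after the second spray, some classes already leaned with ABA in the direction of the later morning. Features were counted as higher or lower with ABA in libraries that no step uses, although each feature has the same spread estimate in every comparison, so well-measured features are called more often in either direction. Over all features 25.8% were called, 13.6% higher and 12.2% lower. Of the 144 enlarged falls, 42.4% were lower and 6.94% higher, and of the 187 enlarged rises, 27.3% were higher and 5.88% lower. Added rises had 26.6% higher and 6.36% lower, and added falls 26.6% lower and 10.7% higher. Features called the same way in both steps with no difference past the threshold leaned too. Their rises had 22% higher and 12.1% lower, and their falls 15.4% lower and 8.13% higher. The lean was thus not limited to added and enlarged features. Removed rises had 19.7% higher and 22.6% lower, and removed falls 20.3% and 19.5%. Dampened rises were higher with ABA in 31.0% and lower in 19.3%, the reverse of their morning direction. At 160 min, before the second spray, the shares over all features were 8.55% higher and 5.06% lower, and 26.7% of enlarged rises were higher and 20.1% of enlarged falls lower. At that harvest 73 of the 586 removed falls were higher and 20 lower.

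Features higher with ABA at 320 min rose overnight in ABA leaves more often than the average feature. Of the 2391 features higher with ABA at 320 min, 1037 (43.4%) rose and 447 (18.7%) fell over the ABA step, against 25.4% and 26.6% of all tested features. Over the mock step 42.7% of the same features rose and 24.8% fell, against 27.6% and 31.1% of all, so their morning rise was not limited to treated leaves. The difference of the steps was positive for 382 of them (16%) and negative for 387 (16.2%), against 10.4% and 10.5% of all. Of the 2143 features lower with ABA at 320 min, 815 (38%) fell and 506 (23.6%) rose over the ABA step, and over the mock step 40.7% fell and 32.3% rose. The difference of the steps was negative for 441 of them (20.6%) and positive for 260 (12.1%). With library size alone, 641 of the 2391 rose and 839 fell, and 361 of the 2143 rose and 1232 fell, beside an all-feature median of -0.49.

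KMT00672 and KMT06598 had the most positive difference of the steps. KMT00672 stood at 39.9 and 46 CPM in ABA leaves at 1280 min and at 0.182 and 0.21 CPM at 640 min, and in mock leaves at 0.0678 and 0.936 CPM at 1280 min and 0.0737 and 0.33 CPM at 640 min. It had 2043 counts in treated morning leaves and 13, 16 and 12 in ABA night, mock morning and mock night leaves. It thus reached the required mean of 200 counts only through the treated morning, so the gap to the other groups follows from its choice. At the harvests before 640 min its group means were at most 0.779 CPM. The difference was 6.45 with an SE of 1.2 (log2; edgeR adjusted p = 0.000939), and it did not pass without mock replicate 2 at 640 min (5.01, edgeR adjusted p = 0.156) and was 9.28 without mock replicate 2 at 1280 min. KMT06598 stood at 115 and 186 CPM in ABA leaves at 1280 min and at 8.81 and 6.11 CPM at 640 min, against 0.949 and 1.56 CPM in mock leaves at 1280 min and 3.28 and 4.09 CPM at 640 min. It held 7110 counts in treated morning leaves, against 495, 39 and 213 in ABA night, mock morning and mock night leaves. It too reached the required mean only through the treated morning, so the gap there follows from its choice. Treated and mock libraries did not overlap at either harvest, although at 640 min the comparison missed the threshold (edgeR adjusted p = 0.216). Its group mean in ABA leaves had been 23.5 ± 6.68 CPM at 320 min, against 2.3 ± 1.17 CPM in mock leaves (SD, n = 2 each). The difference was 5.88 ± 0.89 (log2, SE; edgeR adjusted p = 0.000253).

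KMT00662 and KMT00526 had the most negative difference. KMT00662 stood at 0.728 and 0.0872 CPM in ABA leaves at 1280 min and at 0.121 and 0.629 CPM at 640 min, so its treated morning and night libraries overlapped. In mock leaves it stood at 69.2 and 74.7 CPM at 1280 min and at 0.406 and 0.594 CPM at 640 min. It reached the required mean of 200 counts only through the 2217 counts of the mock morning. The gap of that group to the others therefore follows from its choice. The difference was -6.99 ± 1.01 (log2, SE; edgeR adjusted p = 0.00014), with -9.18 without ABA replicate 1 at 1280 min and -5.42 without ABA replicate 2 at 640 min. On the first day its group means declined in both treatments, to 1.36 ± 0.0371 CPM in ABA and 5.41 ± 0.253 CPM in mock leaves at 320 min, against 26.2 ± 3.43 and 29.9 ± 7.02 CPM at 40 min (SD, n = 2 each).

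KMT00526 moved in opposite directions. It stood at 11.7 and 8.67 CPM in ABA leaves at 1280 min, against 35.8 and 28.6 CPM at 640 min, so its log2 fold change was -1.66 with an SE of 0.27 (adjusted p of 4.93e-05, edgeR). In mock leaves it stood at 19.3 and 31.3 CPM at 1280 min, against 3.32 and 3.79 CPM at 640 min, which is 2.83 ± 0.29 on the log2 scale (adjusted p of 1.74e-07, edgeR). Treated leaves thus held more of it than mock leaves at night and less in the morning, without overlap at either harvest. KMT00526 was chosen from these libraries for its difference of the steps, so this crossing follows from the choice. It also reached the required mean of 200 counts only through the 2138 counts of the ABA night. The difference was -4.48 ± 0.40 (log2, SE; edgeR adjusted p = 6.73e-07).

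Of the features with the widest mock steps, KMT12690 and KMT18395 rose in both treatments. KMT12690 stood at 26.5 and 19.1 CPM in ABA leaves at 1280 min, against 0 and 11 counts at 640 min, so its log2 fold change was 7.06 ± 0.58 (SE). That value was 6.05 without ABA replicate 1 at 640 min, and without replicate 2 there no ABA night count was left. In mock leaves it stood at 121 and 103 CPM at 1280 min, against 3 counts in the libraries of 640 min together, 2140 times as much, with a 95% counting interval from 731 to 10400 (adjusted p of 5.88e-10, edgeR). KMT12690 reached the required mean of 200 counts only through the 3436 counts of the mock morning, so the gap of that group follows from its choice. The difference of its steps missed the threshold (-3.86 ± 1.38, log2 with SE, edgeR adjusted p = 0.0578). It passed with DESeq2 (adjusted p = 0.0271) and among features with a mean of at least 50 counts (edgeR adjusted p = 0.0485). The difference was -4.83 without ABA replicate 1 at 640 min but 1.05 without replicate 2 there. KMT18395 stood at 69.0 and 36.4 CPM in ABA leaves at 1280 min, against 0.212 and 0.329 CPM at 640 min, and at 118 and 107 CPM in mock leaves at 1280 min, against 5 and 0 counts at 640 min. Its log2 fold change was 7.58 ± 0.42 in ABA and 10.24 ± 0.50 in mock leaves (SE), and the difference was just past the threshold (-2.66 ± 0.90; edgeR adjusted p = 0.0442). It missed it under 10 of 17 alternatives, among them 6 of the 8 that leave out a library, with adjusted p from 0.0539 without ABA replicate 2 at 1280 min to 0.201 without mock replicate 2 at 640 min. In the order of ABA replicates 1 and 2 at 640 min and mock replicates 1 and 2 at 1280 min, leaving each out gave 0.0627, 0.187, 0.0705 and 0.0606. The mock value was 9.18 without mock replicate 2 at 640 min, and without replicate 1 there no mock night count was left.

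KMT01258 and KMT08938, which fell most in mock mornings, reached low levels in both treatments from unlike night levels. KMT01258 stood at 0.89 and 2.48 CPM in ABA leaves at 1280 min, against 22.7 and 18.6 CPM at 640 min, and at 2.37 and 0.812 CPM in mock leaves at 1280 min, against 170 and 155 CPM at 640 min. Its log2 fold change was -3.62 ± 0.41 in ABA and -6.69 ± 0.45 in mock leaves (SE; difference 3.06 ± 0.62, edgeR adjusted p = 0.00211). KMT08938 stood at 0.769 and 2.48 CPM in ABA leaves at 1280 min, against 22.2 and 12.1 CPM at 640 min, and at 1.08 and 0.25 CPM in mock leaves at 1280 min, against 60.8 and 70.5 CPM at 640 min. Its log2 fold change was -3.41 ± 0.41 in ABA and -6.64 ± 0.49 in mock leaves (SE; difference 3.23 ± 0.69, edgeR adjusted p = 0.0033). The treatments did not overlap at night and did overlap in the morning for both features. KMT01258 held 9309 counts in mock and 1372 in ABA night leaves, and KMT08938 held 3785 and 1137. Both reached the mean of 200 counts required of named features only through the mock night. The night gap between treatments therefore follows from their choice. Without mock replicate 1 at 1280 min the mock values were -7.64 and -8.01, and without replicate 2 there -6.09 and -5.91. Without ABA replicate 2 at 1280 min the difference missed the threshold for both, at 2.16 (edgeR adjusted p = 0.0534) for KMT01258 and 2.17 (edgeR adjusted p = 0.0716) for KMT08938, and the ABA values were -4.53 and -4.47.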

How the data were processed

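The authors deposited whole-number read counts per feature, one file a library, without normalisation; a feature missing from a file was taken as 0 counts. Polyadenylated RNA was sequenced from strand-specific libraries as single reads of 150 bp, per the labels' protocols. CASAVA, Trimmomatic and DESeq2 are named in the submitters' processing notes, with no role or version. Aligner, counting tool and reference were not given in the sources used here, and reads of near-identical copies may be split or merged for any named identifier. Samples were grouped by their titles, as corrected by the submitters.

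Counts were fitted in R 4.3.3 with edgeR 4.0.16: features kept by its expression filter (minimum count 10), TMM scaling, a robust quasi-likelihood fit of all 24 libraries with 12 group means (12 residual degrees of freedom), two-sided F-tests and Benjamini-Hochberg adjustment over the 17561 tested features. The contrasts were the ABA step, the mock step and their difference. SEs were derived from the fold change and its F value, and so restate the test. Fold counts use a floor of 3 counts over a group at 0. Class levels are log2 CPM with a prior count of 2. No replicate pair agreed within sampling noise (lowest chi-square over its degrees of freedom 5.43), so every library counts as a sample. Sequencing lanes are not assigned to libraries in these sources, and batches were not examined.

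For each contrast the named features are the 2 with the most positive and the 2 with the most negative log2 fold change among those past the threshold that averaged 200 counts or more in the 8 libraries and, for a step, did not overlap between harvests. KMT19684, KMT12361, KMT12690, KMT01258, KMT08938, KMT00672, KMT06598, KMT00662 and KMT00526 reached that mean only through the group where they were highest. The gap of that group to the others therefore follows from the choice. Members, classes and lists were chosen with earlier results of these data known. Lists of gene names matched 0 identifiers and were not used. Alternatives covered scaling, filters, DESeq2 1.42.0 as the test, the libraries in the fit, a replicate block and leaving out each library. The fit was tested on simulated data.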

Additional observations from a re-analysis of the deposited data

Results flagged for a closer look

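The overnight step differed between ABA and mock leaves, by the test of the difference itself, for 3672 features (20.9% of those tested) and for 7 of the 12 named ones. KMT00672, KMT06598, KMT00662 and KMT00526 were named because they passed this test. The others were named for the size of a step that enters it, so 7 of 12 is no rate to set beside 20.9%. The ABA step minus the mock step was 6.45 for KMT00672, 5.88 for KMT06598, 3.23 for KMT08938 and 3.06 for KMT01258 on the log2 scale. It was -6.99 for KMT00662, -4.48 for KMT00526 and -2.66 for KMT18395. The difference for KMT18395 missed the threshold under 10 of 17 alternatives, and those for KMT01258, KMT08938 and KMT00672 under 1 each.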

How the results depend on the processing

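The ABA and mock steps of named features kept call and direction under the alternatives run, except the mock step of KMT19684 without mock replicate 1 at 1280 min. Their differences held less well: calls were lost for KMT18395 under 10 of 17 alternatives (library size alone, no filter, the 8 libraries fitted alone and the stricter threshold included), and under 1 each for KMT00672, KMT01258 and KMT08938. Those of KMT06598, KMT00662 and KMT00526 held. Among differences that missed the threshold, leaving out a library gave 1.05 to -4.83 for KMT12690, -0.34 to 0.97 for KMS95215 and -0.28 to 0.47 for KMT00543 (log2), so these have no firm direction, and that of KMT19684 passed under 3 alternatives and that of KMT12361 under 1. An adjusted p under 0.01 left 2018 features with a difference of the steps, with 401 added, 713 removed, 574 dampened, 172 enlarged and 140 opposed. Library size alone gave 2334 dampened features, a smaller ABA step for 76.9% of features called in both, and, from the lists of 320 min, 641 higher and 1232 lower in the ABA step. Leaving out single libraries gave 739 to 1661 removed, 773 to 1197 dampened and 197 to 356 enlarged features, and 59.5 to 72.2% with the smaller step in ABA leaves. The 4 ABA libraries fitted alone gave 7110 calls for the ABA step in place of 9145. The mock step in the share of counts was 9.39 points for the 20 and 18.7 for the 500 most abundant features. Leaving out the 100 most abundant features gives no value for their own counts. Same-numbered replicates did not deviate together (r of 0.01 between the ABA harvests and 0.03 between the mock harvests), and with a replicate block 9013, 10184 and 3506 features passed for the ABA step, the mock step and the difference. The alternatives of the slope and of the percent with the smaller step, the share of counts without single libraries, the mock counts by abundance, and the further steps and differences of named features were added after seeing the data. With 2 plants a group, differences that miss the threshold are not shown to be absent, and features with few night counts have imprecise steps.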
